A study of Oryza sativa with 6 samples.

Results

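Trehalose-phosphate phosphatases remove the phosphate from trehalose 6-phosphate and release trehalose. Plants make trehalose 6-phosphate from glucose 6-phosphate and UDP-glucose by trehalose-phosphate synthase, and trehalase splits the trehalose into glucose. Trehalose 6-phosphate follows the sucrose status of plant cells and inhibits the starvation kinase SnRK1, so the phosphatases stand at a branch between a sugar signal and a stress-related sugar. In rice, TPP1 has been described as a cold-induced gene whose overexpression raised tolerance of salt and cold, and TPP7 as a gene behind tolerance of germination under water. For TPP9 and TPP10 only the enzyme family is given as background.

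The 4 genes TPP1, TPP7, TPP9 and TPP10 were found by name among the symbols and synonyms of a RefSeq rice gene table, through probe sets tied to 1 gene. They are 4 of the 17905 genes with such a probe set, represented by 5 of 57258 rice probe sets, 1 each for TPP1 (LOC4330221), TPP9 (LOC4332996) and TPP10 (LOC4343248) and 2 for TPP7 (LOC4346885). Leaf RNA of 2-week-old Zhonghua 11 rice was hybridised to 6 Affymetrix arrays, 1 for each combination of genotype and stage, with 10 plants to an array. Transgenic plants carried an antisense construct against OsPDCD5 and were sampled before salt, after 20 min and after 3 h in 200 mM NaCl. Nontransgenic Zhonghua 11 plants were sampled at the same 3 stages. The labels name neither the promoter of the antisense construct nor the number of independent lines. No group was moved to dishes without salt, so salt, transfer and time of day cannot be told apart.

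Each group was a single array, and the number of arrays bounds the precision of all values given here. Salt changes were estimated over both genotypes, and genotype differences over the 3 stages, in 1 additive model for 28629 probe sets. Its p-values therefore depend on how evenly a difference repeated over the pairs of arrays, not on a spread between replicate samples. The fit with limma also draws the spread of each probe set toward that of probe sets of like signal. That spread counts for a median of 4.52 degrees of freedom, beside 2 residual ones of the probe set itself. A small p-value therefore need not mean that the pairs were even. Changes are on the log2 scale after adding 16 to the signal, which damps differences near background. Of the 5 probe sets, 4 passed the filter on low signal, and the dimmer TPP7 probe set did not. TPP10 lay just above the filter (mean 5.58 against a limit of 5.53 on the log2 scale), with a mean of 6.30 over the transgenic arrays and 4.86 over the nontransgenic arrays. It therefore passed through the transgenic arrays alone.

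As a check of the tissue, 7 of 7 leaf marker genes with a probe set passed the filter, and their summed signal lay between 170043 and 185320 on transgenic arrays and between 132816 and 172671 on nontransgenic arrays. Of 6 root marker genes 4 passed, with sums of 2486 to 4049 and 2581 to 8012 in the same order of groups. Most of the highest sum came from NAS1, which read 6836 on the nontransgenic 20 min array. The silicon channel gene LSI1 had signals of 744 to 1101 on transgenic and 537 to 792 on nontransgenic arrays, while LSI2, a silicon exporter gene, read 1 to 1.53 and 1 to 1.34. Root markers were therefore not all absent from these leaf samples. Of 6 seed marker genes 2 passed, with sums of 1628 to 2115 on transgenic and 1587 to 1862 on nontransgenic arrays. Most of this was GLUA2, which on its brighter probe set read 1429 to 1976 and 1407 to 1751. Seed markers were therefore not all absent either. The filter is the median of the rice probe sets, of which 28629 of 57258 passed. By genotype, 3 leaf markers were called higher in transgenic leaves (GLO1 at 0.54, GLO5 at 0.47 and PORB at 0.75) and FBA1 lower (-0.41), and of the root markers PIP2;5 was called higher (1.45) and NAS1 lower (-1.65). Over all probe sets tested, 9.94% were called higher and 10.6% lower by genotype. The part of these marker differences in the genotype differences of the phosphatase genes was not tested. The ratio of 3′ to 5′ signal of the GAPDH control probe sets, a measure of RNA integrity and labelling, was 7.79 to 12.3 on transgenic arrays and 2.78 to 3.22 on nontransgenic arrays. For the actin controls this ratio was 12.3 to 18.1 on transgenic and 8.94 to 14.5 on nontransgenic arrays, high on all 6. For the cyclophilin controls it was 1.51 to 1.84 and 1.47 to 1.91. The GAPDH ratio thus moved with genotype while the actin and cyclophilin ratios overlapped, and the part of RNA quality in the genotype differences below was not tested.

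TPP1 and TPP7 had their highest signals 20 min into NaCl and their lowest at 3 h, in both genotypes. TPP1 had signals of 644 before salt, 1313 at 20 min and 103 at 3 h in transgenic leaves, against 502, 664 and 171 at these stages in nontransgenic leaves. TPP7, on its brighter probe set, had signals of 5068, 10405 and 2111 in transgenic leaves and of 4103, 6943 and 1604 in nontransgenic leaves. Both 20 min arrays were above both arrays from before salt for each gene, as they were for 15.7% of all probe sets tested, and both 3 h arrays were below them (17.8%). In leaves as bulk tissue, fewer cells that express a gene and less RNA per cell cannot be told apart.

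Within each genotype TPP9 had its lowest signal at 20 min, where TPP1 and TPP7 had their highest, but its fall from before salt did not pass (limma adjusted p = 0.432). TPP9 had signals of 1009 before salt, 572 at 20 min and 924 at 3 h in transgenic leaves, against 287, 224 and 519 in nontransgenic leaves. Every transgenic array was above every nontransgenic one, as for 14.2% of all probe sets tested. TPP10 was much dimmer, with signals of 69.0, 73.6 and 48.1 in transgenic leaves and 23.6, 6.19 and 12.1 in nontransgenic leaves. Its groups did not overlap between the genotypes either, but 2 of the 3 nontransgenic values were below the added 16. Since TPP10 passed the filter through its transgenic arrays, this separation is in part set by its selection.

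**Figure D1:**
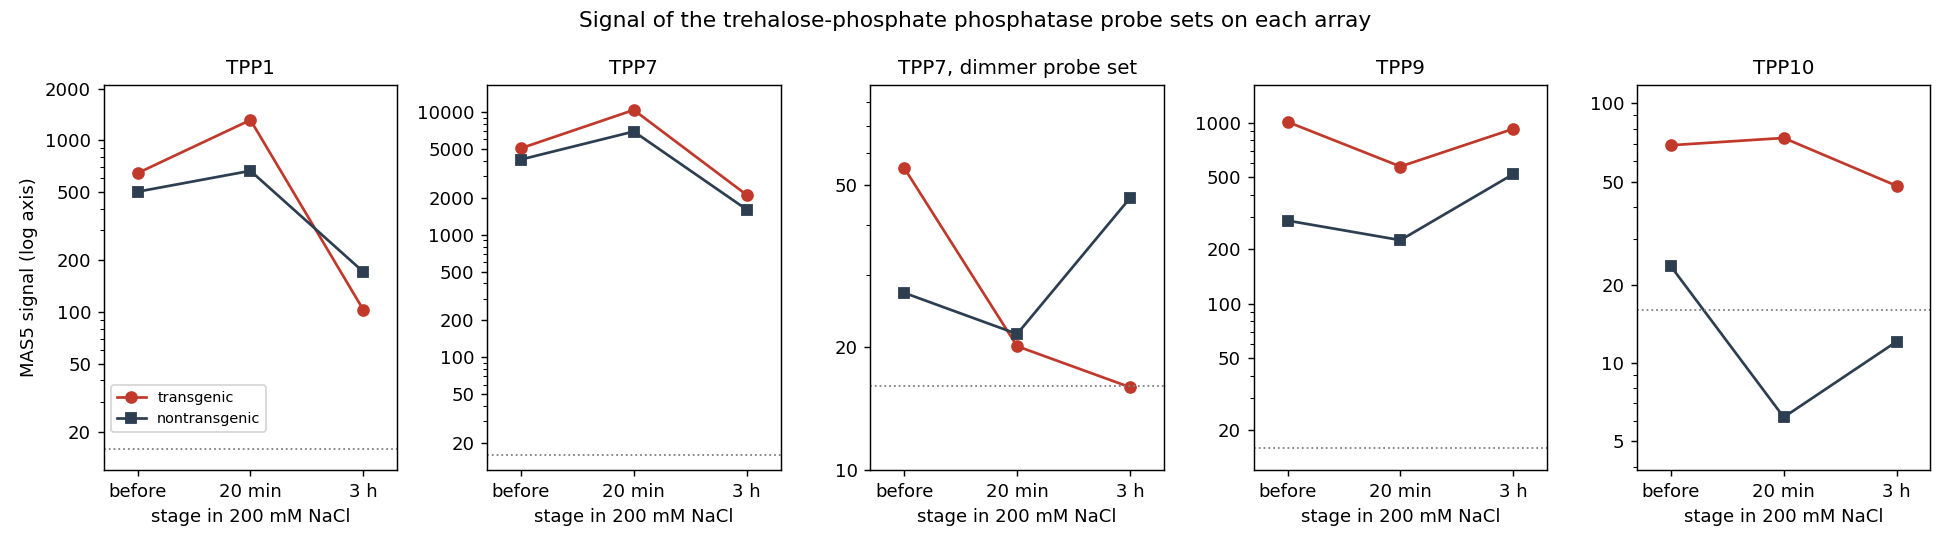
MAS5 signal (log axis, different range in each panel) of the 5 probe sets by stage in 200 mM NaCl, 1 array per point, transgenic in red circles and nontransgenic in dark squares; the dotted line marks the added 16. Within each genotype TPP1 and the brighter TPP7 probe set peak at 20 min and are lowest at 3 h, and TPP9 is lowest at 20 min. TPP9, TPP10 and the brighter TPP7 probe set lie higher in transgenic leaves at every stage, as do 27.2% of all probe sets tested.

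The second TPP7 probe set did not show the pattern of the first. Its signals were 55.1, 20.1 and 15.9 in transgenic leaves and 27.2, 21.5 and 46.5 in nontransgenic leaves, with opposite directions at 3 h in the 2 genotypes. It lay near background throughout, at the 49.3rd percentile of all rice probe sets by mean, where the brighter one lay at the 95.6th. The brighter probe set carries the array's suffix for probes that match more than 1 transcript, so a share of its signal from related sequences was not tested. All further TPP7 values are from the brighter probe set.

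The early response to NaCl was read from the 20 min arrays against those from before salt. TPP7 rose by 0.90 ± 0.13 (log2 change ± SE, limma adjusted p = 0.0363), the 1134th highest of the 28629 probe sets tested. Its signal was 2.05 times as high at 20 min as before salt in transgenic leaves and 1.69 times as high in nontransgenic leaves. TPP1 stood at 0.70 ± 0.36 without passing (adjusted p = 0.516, 95% interval from -0.17 to 1.57). Its signal was 2.04 times as high at 20 min in transgenic leaves and 1.32 times as high in nontransgenic leaves, so the pairs differed more than those of TPP7. The TPP1 change was 0.14 without the transgenic 20 min array and 1.26 without the nontransgenic one, and it passed in 0 of 13 alternatives.

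TPP9 stood at -0.57 ± 0.24 (adjusted p = 0.432) and TPP10 at -0.38 ± 0.42 (adjusted p = 0.783), and neither passed. TPP9 was below its level before salt in both genotypes, by -0.80 in transgenic and -0.34 in nontransgenic leaves on the log2 scale. In all, 1 of the 4 probe sets tested was called at 20 min, where 0.947% of all probe sets were called. The members were chosen with earlier results of these data known, so a count above this share is no sign of enrichment. The TPP7 call was lost with no filter (adjusted p = 0.0682), with no intensity trend in the variance model (0.255) and without any 1 of the 4 arrays of these stages (0.0860 to 0.245), while its change stayed between 0.78 and 1.01.

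After 3 h in NaCl both TPP1 and TPP7 were below their level before salt. TPP1 fell by 1.97 ± 0.36 (adjusted p = 0.0311) and TPP7 fell by 1.30 ± 0.13 (adjusted p = 0.00536). TPP1 was the 66th lowest and TPP7 the 342nd lowest of the 28629 changes. In transgenic leaves the signal of TPP1 was 6.25-fold lower and that of TPP7 2.40-fold lower than before salt. In nontransgenic leaves it was 2.93-fold lower for TPP1 and 2.56-fold lower for TPP7. TPP1 thus differed in size between the genotypes, and TPP7 was nearly alike.

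TPP9 stood at 0.35 ± 0.24 (adjusted p = 0.471) and TPP10 at -0.45 ± 0.42 (adjusted p = 0.602). The 2 pairs of TPP9 had opposite signs, at -0.13 in transgenic leaves, a change smaller than the SE, and 0.82 in nontransgenic leaves. In all, 2 of 4 probe sets were called at 3 h, both lower, where 2.58% of all probe sets were called lower, 3.44% higher and 6.01% in either direction. Since the members were chosen with earlier results of these data known, this count is no sign of enrichment. The TPP1 call was lost with no filter (0.0542), with no intensity trend (0.133), without the nontransgenic or the transgenic array from before salt (0.112 and 0.170) and without the transgenic 3 h array (-1.31, adjusted p = 0.0552). The TPP7 call was lost with no intensity trend (0.0782) and held in the other 12 alternatives.

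Between 20 min and 3 h in NaCl, TPP1 and TPP7 made their largest moves. TPP1 fell by 2.67 ± 0.36 (adjusted p = 0.00995) and TPP7 fell by 2.20 ± 0.13 (adjusted p = 0.00155), the 53rd and 127th lowest of 28629. At 3 h the signal of TPP1 was 12.7-fold lower than at 20 min in transgenic leaves and 3.87-fold lower in nontransgenic leaves. For TPP7 it was 4.93-fold lower in transgenic and 4.33-fold lower in nontransgenic leaves. This comparison uses no array from before salt, and both 3 h arrays were below both 20 min arrays for each gene, as for 21.4% of all probe sets.

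TPP9 stood at 0.92 ± 0.24 without passing (adjusted p = 0.0708, 95% interval from 0.33 to 1.5), and its signal at 3 h was 1.61 times that at 20 min in transgenic and 2.32 times in nontransgenic leaves. TPP9 passed in 2 of 13 alternatives, without the nontransgenic array from before salt (0.92, adjusted p = 0.0467) and without the transgenic 3 h array (1.27, adjusted p = 0.0434). Without the nontransgenic 3 h array it was 0.56, and the adjusted p reached 0.253 without the transgenic 20 min array. TPP10 stood at -0.07 ± 0.42. In all, 2 of 4 probe sets were called, both lower, against 4.23% of all probe sets called lower, 4.45% higher and 8.67% in either direction. This count, too, is of members chosen with earlier results of these data known, and is no sign of enrichment. The TPP7 call held in all 13 alternatives, and the TPP1 call in all but the one with no intensity trend (adjusted p = 0.0755). Without the nontransgenic 3 h array TPP1 stood at -3.33, and without the transgenic 3 h array at -2.01.

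**Figure D2:**
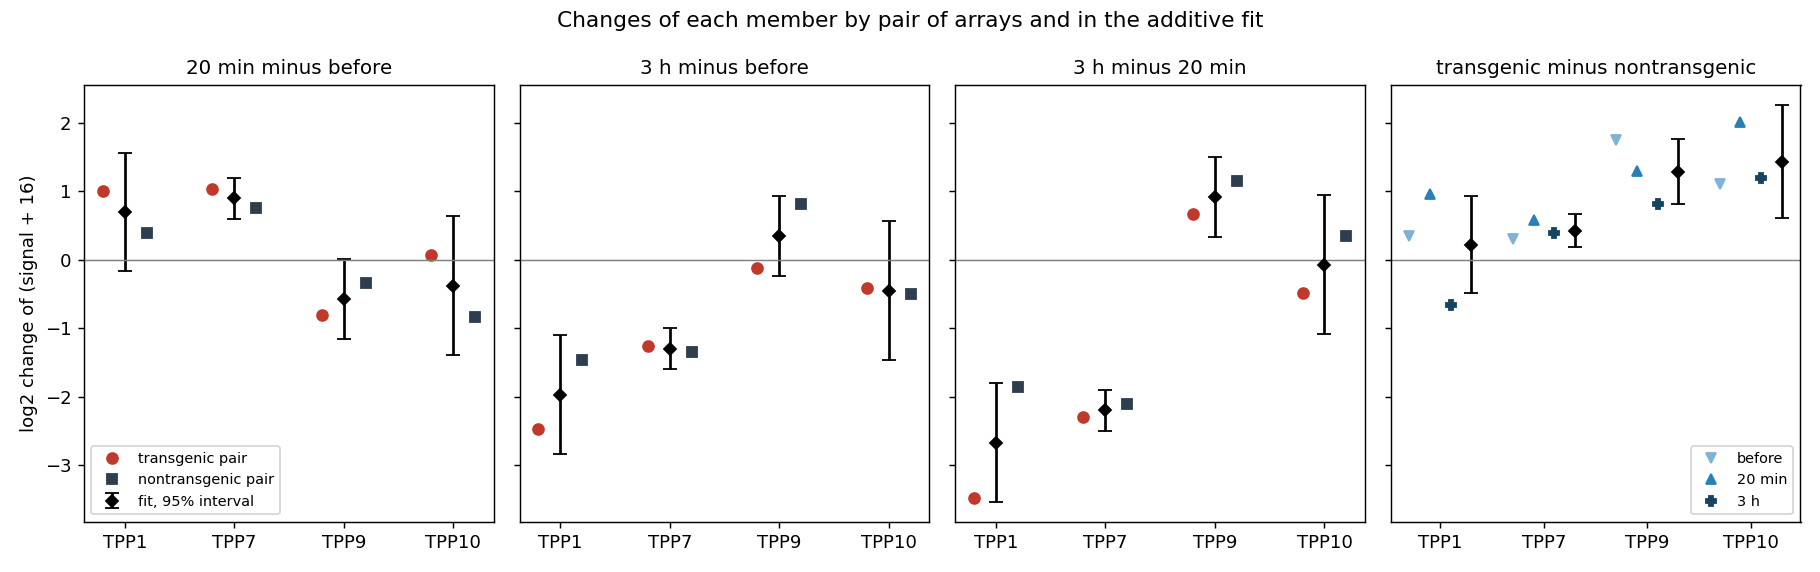
Log2 change of (signal + 16) of the 4 member probe sets that passed the filter; circles and squares are the transgenic and nontransgenic pair of arrays, triangles and crosses the genotype difference at each stage, and black diamonds the additive fit with its 95% interval. The fall of TPP7 from 20 min to 3 h is nearly equal in the pairs, while the TPP1 pairs lie apart at -3.48 in transgenic and -1.86 in nontransgenic leaves.

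Between the genotypes, over the 3 stages, TPP9 and TPP7 were higher in transgenic leaves. TPP9 was higher by 1.29 ± 0.20 (adjusted p = 0.00680) and TPP7 by 0.43 ± 0.10 (adjusted p = 0.0302). TPP9 was 3.51 times as high in transgenic as in nontransgenic leaves before salt, 2.55 times at 20 min and 1.78 times at 3 h. Its transgenic arrays were all above its nontransgenic arrays, as were those of 14.2% of all probe sets, with 14.6% the other way round. TPP7 was 1.24 times as high before salt, 1.5 times at 20 min and 1.32 times at 3 h, so its genotype difference was smaller than its changes in NaCl and its groups overlapped across stages.

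TPP10 was 2.92 times as high in transgenic leaves before salt, 11.9 times at 20 min and 3.98 times at 3 h, ratios that rest on nontransgenic signals at or below 23.6. Its fitted difference was 1.44 ± 0.35 (adjusted p = 0.0308), but since it passed the filter through its transgenic arrays it had to differ, and it is left out of the count that follows. TPP1 stood at 0.22 ± 0.29 (adjusted p = 0.650, 95% interval from -0.49 to 0.93), being 1.28 times as high in transgenic leaves before salt and 1.98 times at 20 min, and 1.66-fold lower at 3 h. Of the 3 other probe sets, 2 were called higher and 0 lower, where 9.94% of all probe sets were called higher, 10.6% lower and 20.6% in either direction. These members were chosen with earlier results of these data known, so the count is no sign of enrichment. Any lasting difference between the 2 sets of plants other than the construct would appear here too and cannot be told apart from it.

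The TPP9 call held in all 13 alternatives, with a change between 1.05 and 1.52. The TPP7 call was lost with no filter (0.0597), with scaling to the spike-ins (0.0631), with no intensity trend (0.116) and without any 1 array from before salt or 20 min (0.0703 to 0.213). The TPP10 difference moved with the offset, to 2.26 with an offset of 1 (adjusted p = 0.0504) and 0.71 with an offset of 64. Its call was also lost with no filter (0.0905) and without any 1 array other than the nontransgenic 3 h array (0.0549 to 0.180).

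The salt responses of the 2 genotypes differed by 0.62 at 20 min and by -1.0 at 3 h for TPP1 (transgenic minus nontransgenic response, log2). Over all probe sets tested, the median size of such a difference was 0.29 at 20 min and 0.35 at 3 h, and 77.5% and 87.6% of probe sets had a smaller one than TPP1. TPP7 differed by 0.28 and 0.09, and TPP9 by -0.46 and -0.95. TPP10 differed by 0.91 at 20 min and 0.09 at 3 h, the first of which was 1.87 with an offset of 1 and 0.37 with an offset of 64. These differences take every degree of freedom of the model that is left for error, so they have no test.

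TPP1 and TPP7 were both highest in transgenic leaves at 20 min. For TPP1 the nontransgenic 20 min array came next, but it differed from the transgenic array before salt by 0.04 on the log2 scale. That one differed from the nontransgenic array before salt by 0.35. Both gaps were within the residual SD of 0.36, which limma moderates toward that of probe sets of like signal. The nontransgenic 3 h and then the transgenic 3 h array came last, by gaps of 1.47 and 0.66. For TPP7 the order was transgenic and nontransgenic at 20 min, the same before salt and the same at 3 h, and each gap (0.30 to 0.95) was above its residual SD of 0.13.

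For TPP9 the order ran from transgenic before salt through transgenic 3 h and transgenic 20 min to nontransgenic 3 h, nontransgenic before salt and nontransgenic 20 min. Transgenic before salt and transgenic 3 h differed by 0.13, and transgenic 20 min and nontransgenic 3 h by 0.14, both within the residual SD of 0.24. For TPP10 the 3 transgenic arrays came first, with gaps of 0.08 and 0.41 between them, and the lowest pair, nontransgenic 3 h and 20 min, differed by 0.34 against a residual SD of 0.42. The residual SD, as moderated by limma, holds genotype differences of the salt response as well as noise. It is that of a single array, and a gap between arrays spreads more widely, so the gaps carry no test.

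Across the 6 arrays TPP1 and TPP7 had a Pearson correlation of 0.95 on the log2 scale, and 151 of the other 28628 probe sets (0.527%) were correlated with TPP1 at least as highly. TPP9 had a correlation of -0.31 with TPP1 and of -0.28 with TPP7, and one of 0.77 with TPP10, which passed the filter through its transgenic arrays. These values describe 6 arrays that share stages and genotypes, and they carry no test.

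Among the 30 genes with a curated symbol, a signal past the filter and a range of at least 1 on the log2 scale, MYBS2 and CPK7 were most like TPP1 (correlations of 0.84 and 0.81, then NSHB2 at 0.51). MYBS2 encodes an MYB factor that binds the sugar response element of amylase promoters, and CPK7 a calcium-dependent kinase. CPK7 (0.79), MYBS2 (0.72) and wsl6 (0.55) were most like TPP7. PP2C68, ASL1 and AL1 were most like TPP9 (0.81, 0.76 and 0.66) and ASL1, AL1 and wsl6 most like TPP10 (0.89, 0.86 and 0.83). All are over the same 6 arrays, and TPP10 had passed the filter through its transgenic arrays.

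A wider pool of 523 genes with a name among their synonyms was added after the values were seen. There CIPK21, a kinase that works with calcineurin B-like calcium sensors, was most like TPP7 (0.98) and among the 3 most like TPP1 (0.95). CIPK21 had signals of 589, 1262 and 291 in transgenic leaves before salt, at 20 min and at 3 h, and of 696, 818 and 248 in nontransgenic leaves. Its 2 values at 20 min were the highest and its 2 at 3 h the lowest, as for both phosphatase genes. This likeness goes with the choice of CIPK21 by correlation and is no separate result. RIBA2 and ZHD1 were the others for TPP1 (0.97 and 0.95), and ZHD1 and Rac4 for TPP7 (0.95 and 0.95). HAK11, of the potassium transporter family, was most like TPP9 (0.98), followed by PP2C09 and WNK7 (0.94 and 0.93). Trx01, GLK1 and CIPK11 were most like TPP10 (0.97, 0.96 and 0.95). Since TPP10 passed the filter through its transgenic arrays, genes higher in transgenic leaves are favoured among those most like it.

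Of 5 further TPP genes in the gene table, TPP2, TPP3, TPP4 and TPP6 had a probe set of 1 gene, and only TPP2 passed the filter. TPP2 (LOC4349333) had signals of 547, 557 and 550 in transgenic leaves and 404, 415 and 648 in nontransgenic leaves. It was nearly level in transgenic leaves and higher at 3 h in nontransgenic leaves, and none of its changes passed (0.03, 0.33 and 0.30 for the NaCl contrasts in the order above and 0.20 for genotype, adjusted p from 0.429 to 0.972). Signals of different probe sets are not set against each other as levels, so TPP2 is not ranked beside the members. TPP3, TPP4 and TPP6 were near background, with signals of 1.67 to 41.4 in transgenic leaves and 1.25 to 34.2 in nontransgenic leaves. The names used for trehalose-phosphate synthases and trehalase matched no gene of the table, so these enzymes are not analysed here.

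Genes of the sugar pathways around trehalose were described by counts, each beside the median of all probe sets. Of all 28629 probe sets tested, 3422 at 20 min and 6327 at 3 h had an unadjusted limma p under 0.05. Between 20 min and 3 h 7157 had one, and by genotype 9873. The lists were chosen with earlier results of these data known. In the list of SnRK1 kinase genes and starvation targets, 7 of 11 genes with a probe set passed the filter. None of the 7 was called by limma at 20 min or between 20 min and 3 h (2 and 3 had an unadjusted p under 0.05), and their median changes were -0.27 and 0.05, where those of all probe sets were 0.01 and -0.02. At 3 h against before salt 1 rose and 1 fell (median -0.24, all probe sets 0.01), where 3.44% of all probe sets rose and 2.58% fell. By genotype 1 of 7 was higher (median 0.18), near the 9.94% of all probe sets. AMY2A, an alpha-amylase gene, rose by 1.83 ± 0.38 at 3 h (adjusted p = 0.0430), with signals of 30.1, 50.0 and 185 in transgenic leaves and 19.2, 52.6 and 85.9 in nontransgenic leaves. MYBS2 fell by 0.94 ± 0.19 at 3 h (adjusted p = 0.0400), with signals of 10171, 7866 and 4059 in transgenic and 7223, 6384 and 4879 in nontransgenic leaves. Unlike TPP1 and TPP7, MYBS2 was already below its level before salt at 20 min in both genotypes (-0.27, adjusted p = 0.634). The call of MYBS2 at 3 h was lost when the probe sets of a gene were averaged, as was that of MYBS3, higher by 0.33 in transgenic leaves (adjusted p = 0.0460).

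Of 23 genes of sucrose metabolism and transport with a probe set, 19 passed the filter. At 20 min limma called none (median 0.04). An unadjusted p under 0.05 was found for 2 of the 19, and for 3422 of all 28629 probe sets. At 3 h 2 rose and 2 fell (median -0.02), where 6.01% of all probe sets were called. Between 20 min and 3 h 1 rose and 2 fell (median -0.10), where 4.45% of all probe sets rose and 4.23% fell. By genotype 2 were higher and 3 lower (median 0.12, all probe sets 0.00), and these 5 of 19 are near the 20.6% of all probe sets. SUS4, a sucrose synthase gene, rose by 1.90 ± 0.32 at 3 h (adjusted p = 0.0240). Its signals were 562, 595 and 3192 in transgenic leaves and 1438, 1796 and 3613 in nontransgenic leaves, so at 3 h it was high where TPP1 and TPP7 were low. SUT1, a sucrose transporter gene, rose by 0.70, and the neutral invertase gene NIN3 and the sucrose phosphatase gene SPP2 fell by 0.72 and 0.67 (adjusted p from 0.0231 to 0.0361). NIN3 was also higher by 0.76 in transgenic leaves (adjusted p = 0.00356) and INV1 by 0.41, while SUS1 (-1.82) and SUS4 (-1.03) were lower (adjusted p from 0.0358 to 0.0446 for these 3). The SUS1 difference was uneven, at -0.42 before salt, -1.92 at 20 min and -3.10 at 3 h. Its signals were 73.8, 53.8 and 8.06 in transgenic leaves and 104, 249 and 191 in nontransgenic leaves. The transgenic 3 h signal thus lay near background. A dimmer SUS1 probe set read 46.5, 19.5 and 40.7 in transgenic leaves and 54.0, 75.2 and 39.0 in nontransgenic leaves. On that probe set the genotypes were nearly alike at 3 h.

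Of 6 starch genes past the filter limma called none in a NaCl contrast (0, 2 and 2 had an unadjusted p under 0.05, with medians of 0.10, 0.17 and 0.06). Of all 28629 probe sets tested, 3422, 6327 and 7157 had such a p in these contrasts. By genotype 1 was higher and 2 were lower of the 6 (median 0.01), where 9.94% of all probe sets were higher and 10.6% lower. SSI, a starch synthase gene, was higher by 1.33 ± 0.16 (adjusted p = 0.00257). The granule-bound starch synthase gene WX was lower (-3.10 ± 0.26, adjusted p = 7.71e-04), with signals of 24.1, 47.2 and 75.6 in transgenic leaves and 459, 608 and 480 in nontransgenic leaves. The branching enzyme gene SBE1 was lower at -0.51 (adjusted p = 0.0363).

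Among 3 genes described as regulators of TPP1 or named like one, limma called none in any contrast, and 1 each had an unadjusted p under 0.05 at 20 min, between 20 min and 3 h and by genotype and 0 at 3 h. Of all 28629 probe sets tested, 3422 had such a p at 20 min, 6327 at 3 h, 7157 between these and 9873 by genotype. The median changes of the 3 genes were 0.14 at 20 min, -0.13 at 3 h, -0.27 between these and -0.13 by genotype. Chosen after its values were seen, the MAP kinase gene MPK3 (LOC4332475), of the cascade described upstream of TPP1 in the cold, had signals of 482, 2292 and 491 in transgenic leaves and 1159, 1965 and 1357 in nontransgenic leaves. It was highest at 20 min in both genotypes, at 1.48 ± 0.38 against before salt without passing (adjusted p = 0.176).

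**Figure D3:**
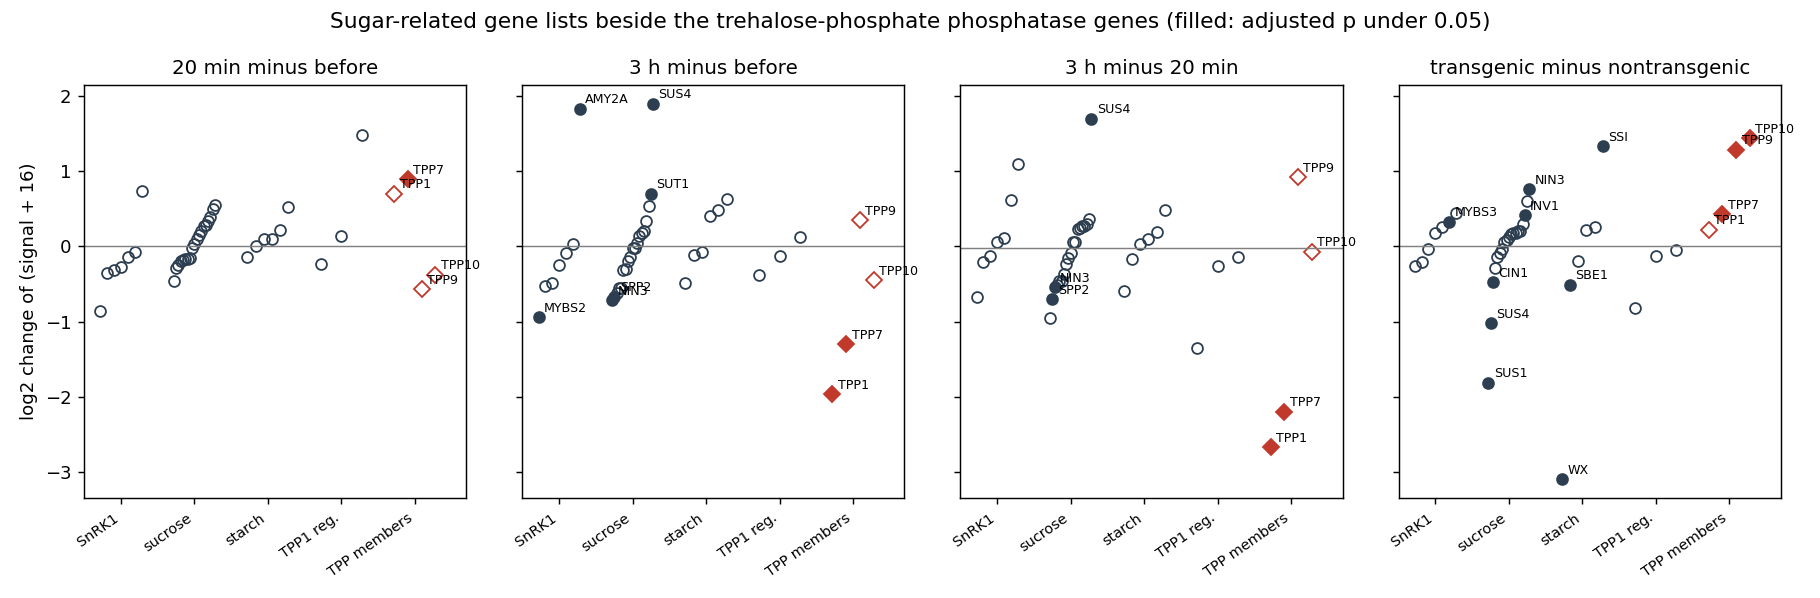
Log2 change of (signal + 16) for the sugar-related gene lists and, in red diamonds, TPP1, TPP7, TPP9 and TPP10, 1 point per gene past the filter, filled where the adjusted p is under 0.05; the grey line is the median of all probe sets tested. TPP1 and TPP7 lie lowest among all genes drawn in both contrasts of 3 h, and no gene of the other lists is filled at 20 min.

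**Figure D4:**
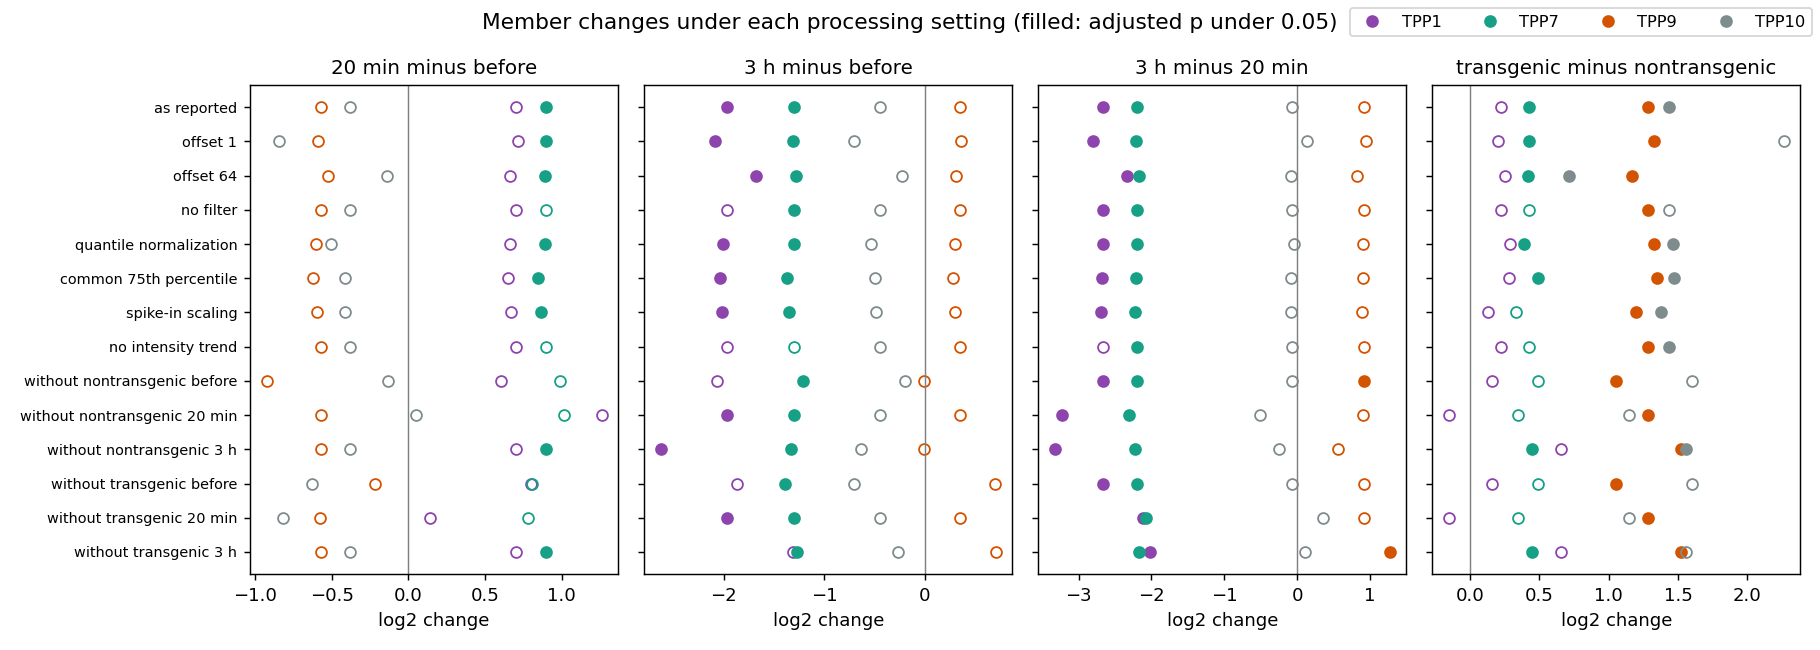
Log2 change of the 4 member probe sets in each contrast (columns) under each setting of the processing and without each array (rows), filled where the adjusted p is under 0.05. TPP7 between 20 min and 3 h and TPP9 between genotypes are filled in every row, while TPP7 at 20 min and TPP1 at 3 h are open in several.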

How the data were processed

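The authors deposited log2 signals per probe set of 6 arrays, 1 colour, computed with MAS5 according to the submitters' processing notes (the labels state neither its version nor a scaling target). The linear signals had a trimmed mean of 497.5 to 497.7 on every array and medians were 4.94 to 5.28 on the log2 scale. Genes were named through the platform annotation and the RefSeq table of assembly ASM3414082v1 (22436 of 57258 probe sets with 1 gene).

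From these values log2(signal + 16) was computed, probe sets whose mean was under 5.53, the median over the rice probe sets, were left out, and limma 3.58.1 (R 4.3.3, lmFit and eBayes with an intensity trend) was fitted with genotype and stage as additive terms and 2 residual degrees of freedom. P-values were adjusted by Benjamini-Hochberg over 28629 probe sets at a threshold of 0.05. On simulated data with known changes, false calls made up a larger share of all calls than the threshold in every contrast. They were 33 of 175 calls at 20 min, 13 of 148 at 3 h, 35 of 174 between these and 20 of 186 by genotype. The members and lists were chosen with earlier results of these data known. Named genes were all members, the other TPP genes, up to 2 called genes per direction and contrast of each further list, and the 3 genes most like each member over the 6 arrays. From the lists, 4 genes that share a name with another protein family were left out. Lists used 1 probe set per gene, the one with the highest mean. The alternatives were offsets of 1 and 64, no filter, quantile, 75th percentile and spike-in scaling, no intensity trend, each array left out, and the mean over the probe sets of a list gene. The offset and scaling of the response differences and the wider pool of similar genes were added after the data were seen. No sequence is printed.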

Additional observations from a re-analysis of the deposited data

Results flagged for a closer look

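For 2 of the members the changes in the 2 genotypes had opposite signs, a difference that was not tested. In each case the transgenic change was small, within the residual SD of the probe set (0.24 for TPP9 and 0.42 for TPP10). For TPP9 at 3 h against before salt the response in transgenic minus nontransgenic leaves was -0.95 (log2), from -0.13 in transgenic and 0.82 in nontransgenic leaves. For TPP10 at 20 min it was 0.91, from 0.08 in transgenic and -0.84 in nontransgenic leaves, where the nontransgenic signal of 6.19 lay near background. Opposite signs, of any size, were found for 36.4% of all probe sets tested at 3 h and 38.1% at 20 min.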

How the results depend on the processing

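The 16 changes (4 probe sets, 4 contrasts) were recomputed under 13 alternatives, and of 208 values 171 kept their direction and their side of the threshold, 27 lost a call, 2 gained one and 8 changed sign. All sign changes were of values that had not passed. TPP10 between 20 min and 3 h stood at 0.13 with an offset of 1 and between -0.50 and 0.36 without single arrays, and TPP10 at 20 min between -0.81 and 0.054. TPP9 at 3 h stood between -0.0096 and 0.70, and TPP1 by genotype between -0.15 and 0.66. Of the 4 probe sets, 1 was called at 20 min, 2 at 3 h, 2 between these and 3 by genotype, TPP10 included. With no filter the calls numbered 0 at 20 min, 1 at 3 h and 1 by genotype, and with no intensity trend 0 at 20 min, 0 at 3 h and 1 between 20 min and 3 h. Without single arrays they lay between 0 and 1, 1 and 2, 2 and 3, and 1 and 3. Over all probe sets the calls were 271, 1722, 2483 and 5889 in these contrasts. They were 152, 992 and 1524 with no filter in the NaCl contrasts, and 0, 0, 100 and 3151 with no intensity trend, where 3103 and 5536 probe sets at 20 min and 3 h had an unadjusted p under 0.05. Without single arrays they lay between 27 and 761, 372 and 2130, 795 and 2895, and 2999 and 6082. The cause of these moves was not tested. No paired analysis was possible because each group holds 1 replicate number, but the stages were compared with genotype as a term and so within genotype. Signals near the added 16 limit TPP10 and the dimmer TPP7 probe set.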
